A study of Anopheles gambiae with 9 samples.

Results

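Runs of neighbouring gene identifiers that hold cuticle genes were examined in the pedicels of *Anopheles gambiae*, the antennal segments that house the Johnston's organ, the mosquito's ear. They are AGAP006820 to AGAP006870, AGAP009868 to AGAP009880 and AGAP000986 to AGAP000990, and they were drawn around 6 genes that the study names as cuticular. Every transcript whose identifier lies in a run was kept, which gave 69 transcripts of 67 genes out of 16066 transcripts of 13845 genes: 51 transcripts in the first run, 13 in the second and 5 in the third. The 6 cuticular genes were chosen by the study from their levels in these same libraries, and the runs were set with results of these data known. Their levels are therefore given as a description, without a test. Most of the other identifiers carry no name in the sources used here and are not assumed to encode cuticular proteins.

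The libraries came from dsxF+/+ XY males, dsxF-/- XX intersex mosquitoes and dsxF+/+ XX females, with 3 libraries for each group. The dsxF-/- XX mosquitoes lack a working female isoform of doublesex, the gene at the end of the insect sex determination cascade, while both dsxF+/+ groups belong to the G3 laboratory strain. Each library pooled the pedicels, 63 to 76 of them, of mosquitoes aged 2 to 3 days that were then kept for 3 days under a light/dark cycle and frozen as the light began to fade. The dsxF+/+ pupae were separated by sex and the dsxF-/- pupae were not, so that cage company, strain background and the mutation cannot be told apart. Libraries held between 14177255 and 18379886 estimated counts. The 10 most abundant transcripts took 8.95% to 14.2% of the counts in 8 libraries and 23.6% in dsxF+/+ XX replicate 3. nanchung and nompB, genes of the ciliated neurons of the Johnston's organ, were above 0 in all 9 libraries.

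Insect cuticle is built from chitin fibres and the proteins that bind them. The largest family of these proteins carries the Rebers and Riddiford (RR) consensus, a stretch of sequence that binds chitin: the RR-1 class is mostly known from soft, flexible cuticle and the RR-2 class from hard cuticle. In mosquitoes RR genes lie in arrays of neighbouring copies. In the ear, cuticle forms the capsule of the pedicel and the plate and prongs to which the auditory neurons attach.

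Of the 6 cuticular genes, AGAP006828, AGAP006830, AGAP006838 and AGAP009868 are named as RR-1 family members, and AGAP000986 and AGAP000988 as cuticular proteins. Among their neighbours, AGAP006825 is named as Trpm, a cation channel of the transient receptor potential group, and AGAP000990 is annotated to the assembly of the axonemal dynein complex, the motor of motile cilia. Along with AGAP000989 and AGAP006835-RB, these neighbours stand in the study's own lists of transcripts higher in dsxF+/+ XY pedicels. Those lists were made from these libraries, so tests on the 4 transcripts are not independent of them.

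Much of the neighbourhoods was silent in the pedicel. Of the 69 transcripts, 22 (31.9%) had no count in any library, against 732 (4.56%) of all 16066 transcripts. The filter on low counts left 23 of the 69 for testing (33.3%), against 77.1% of all transcripts: 12 in the first run, 6 in the second and 5 of 5 in the third. The silence was concentrated in AGAP006839 to AGAP006866. None of the 28 transcripts of that stretch was tested, 20 of them had no count at all, and the other 8 never passed 5 counts in a library. Summed over those 28 transcripts, the stretch held 8 counts in the 3 dsxF+/+ XY libraries, 9 in the dsxF-/- XX libraries and 4 in the dsxF+/+ XX libraries. No difference between groups was detectable there at this depth.

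**Figure D1:**
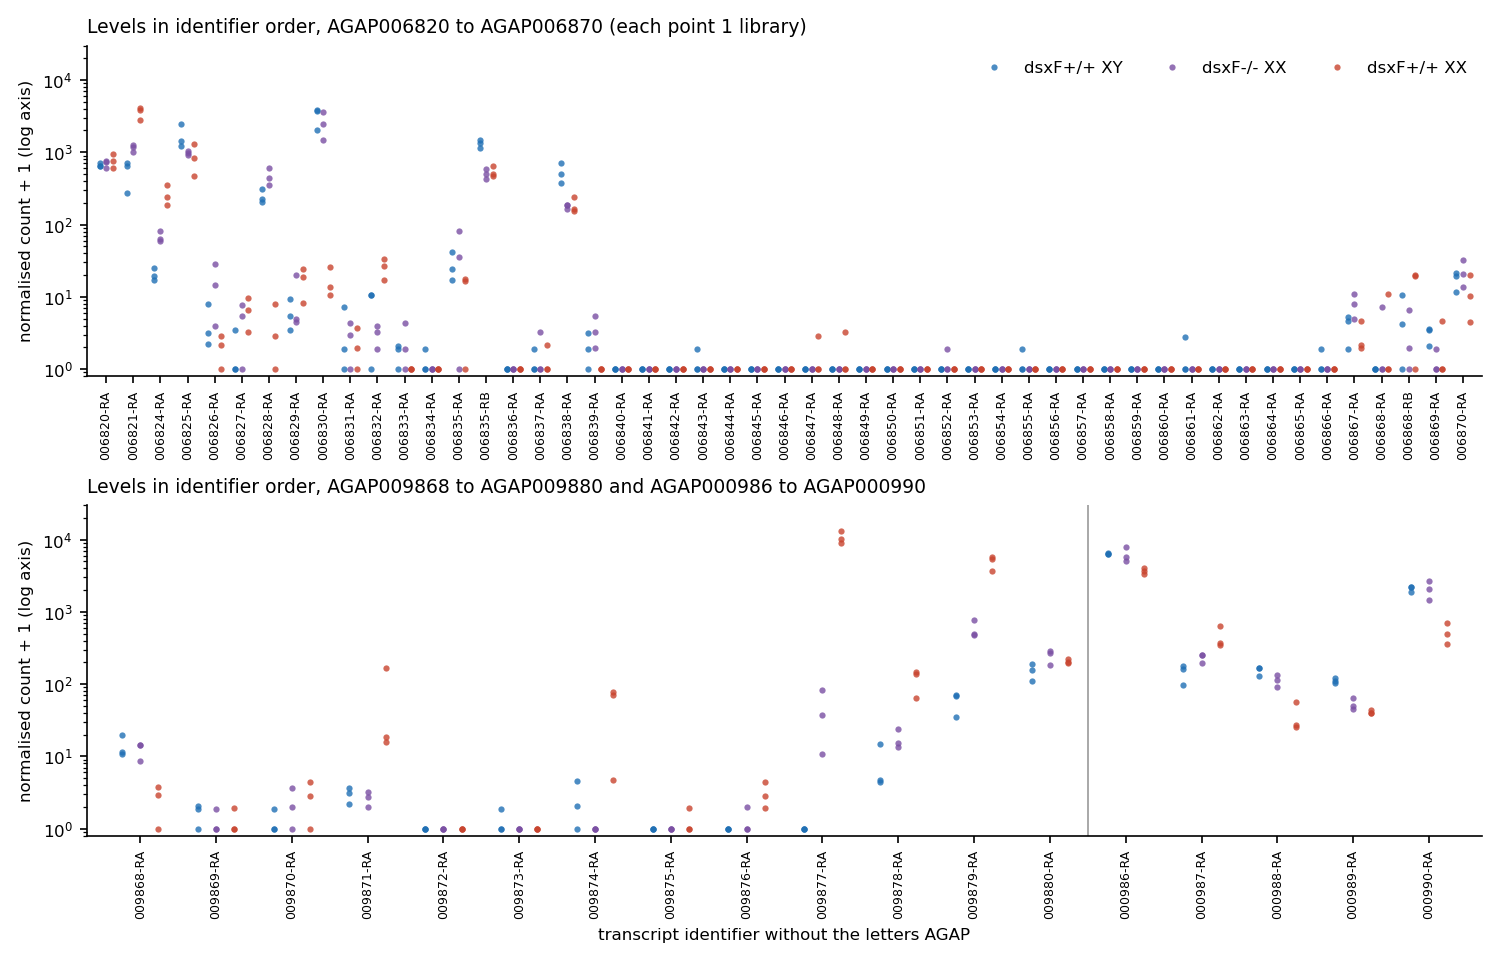
Normalised count plus 1 on a log axis for every transcript of the 3 runs in identifier order, with 1 point per library and a colour per group. Points at 1 are libraries with no count; the 28 transcripts from AGAP006839 to AGAP006866 lie almost wholly on that line, and the expressed transcripts sit on either side of it and in the other 2 runs.

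Of the 46 transcripts that were not tested, 24 had at least 1 count, and 17 of those 24 never exceeded 5 counts in a library. Only 2 exceeded 20 counts in any library: AGAP009874-RA, described with its neighbours, and AGAP006826-RA. AGAP006826-RA summed to 11 counts in dsxF+/+ XY libraries, 46 in dsxF-/- XX libraries and 3 in dsxF+/+ XX libraries. It stands between Trpm and the RR-1 gene AGAP006828 in identifier order.

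Levels below are counts scaled to library size (normalised counts). They are not divided by transcript length, so they are compared between groups and not between genes. There were 3 comparisons, dsxF+/+ XY against dsxF+/+ XX (MvF), dsxF-/- XX against dsxF+/+ XX (IvF) and dsxF+/+ XY against dsxF-/- XX (MvI), and each pair of them shares 1 group of libraries. In whole pedicels, fewer cells of a type and less RNA per cell cannot be told apart.

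In MvF, 9 of the 23 tested members were higher in dsxF+/+ XY males than in dsxF+/+ XX females, beside 11.7% of all 12379 tested transcripts, and 7 were lower, beside 18.1%. Because members were sorted into male-high and female-high by this comparison, nothing further is read from these counts. The median log2 fold change was 0.62 over the 23 members and 0.02 over all tested transcripts. By run, 4 members were higher and 2 lower in AGAP006820 to AGAP006870, 1 higher and 4 lower in AGAP009868 to AGAP009880, and 4 higher and 1 lower in AGAP000986 to AGAP000990. All 6 cuticular genes were among the 9 higher in males, as their choice by the study fixed, and the 7 members lower in males carry no name in the sources used here.

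Among the RR-1 genes, AGAP006830 and AGAP006828 were close to absent from normal female pedicels. AGAP006830 had 3759, 2005 and 3824 normalised counts in dsxF+/+ XY males, 3603, 2468 and 1486 in dsxF-/- XX intersexes, and 24.7, 9.47 and 12.6 in dsxF+/+ XX. The lowest dsxF-/- XX library lay far above the highest dsxF+/+ XX library, and the XY and intersex ranges overlapped. The log2 fold change was 7.66 (SE 0.55) in MvF, 7.31 (SE 0.54) in IvF and 0.34 (SE 0.40) in MvI, with a 95% interval of -0.54 to 1.23 in the last.

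AGAP006828 had 221, 202 and 305 normalised counts in dsxF+/+ XY males, 610, 357 and 438 in dsxF-/- XX intersexes, and 0, 1.89 and 6.90 in dsxF+/+ XX. Here every intersex library lay above every male library. The log2 fold change in MvI was -0.95 (SE 0.47, 95% interval -2.0 to 0.11), beside 6.42 (SE 0.67) in MvF and 7.36 (SE 0.68) in IvF. The size of those last values hung on few female counts: they were 7.85 and 8.80 without dsxF+/+ XX replicate 3, and 5.81 and 6.75 without replicate 1. The 2 RR-1 genes are separated in identifier order by AGAP006829, which did not share their pattern: it averaged 5.08 ± 3.06 normalised counts in dsxF+/+ XY males, 8.80 ± 8.87 in dsxF-/- XX intersexes and 16.1 ± 8.01 in dsxF+/+ XX (SD, n = 3 each), with overlapping groups.

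AGAP006838, the RR-1 gene next to the silent stretch, followed a different course in the mutant. It had 706, 375 and 496 normalised counts in dsxF+/+ XY males, 162, 184 and 185 in dsxF-/- XX intersexes, and 240, 164 and 154 in dsxF+/+ XX females. Males stood apart from both XX groups, which overlapped. Its fitted log2 fold change was 1.5 (SE 0.28) in MvF, -0.07 (SE 0.27, 95% interval -0.68 to 0.54) in IvF and 1.57 (SE 0.28) in MvI.

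Its expressed neighbour AGAP006835-RB ran the same way. It had 1325, 1141 and 1468 normalised counts in dsxF+/+ XY males, 500, 594 and 427 in dsxF-/- XX intersexes, and 637, 469 and 494 in dsxF+/+ XX females. The lowest male library was above every XX library of either genotype. In MvI the log2 fold change was 1.37 (SE 0.20, adjusted p = 0.00496 by edgeR's quasi-likelihood test with Benjamini-Hochberg adjustment). In IvF it was -0.07 (SE 0.20, adjusted p = 0.861), with a 95% interval of -0.52 to 0.38. A second isoform, AGAP006835-RA, held 0% to 11.8% of the gene's counts, and the division of reads between isoforms is an estimate. Summed over both isoforms, the gene had a log2 fold change of 1.30 in MvI (edgeR adjusted p = 0.00391).

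AGAP009868, the RR-1 gene of the second run, was measured at a low level. It had 19, 9.73 and 10.5 normalised counts in dsxF+/+ XY males, 13.4, 13.1 and 7.73 in dsxF-/- XX intersexes, and 2.74, 1.89 and 0 in dsxF+/+ XX females. Both the male and the intersex libraries lay above all dsxF+/+ XX libraries. The log2 fold change was 2.93 (SE 0.80) in MvF, 2.73 (SE 0.80) in IvF and 0.19 (SE 0.68) in MvI, and without dsxF+/+ XX replicate 1 it was 3.54 in MvF and 3.35 in IvF. The 95% interval in MvI ran from -1.33 to 1.72, so that these counts leave differences of over 2-fold between males and intersex undetermined in either direction.

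In the third run, AGAP000986 was less than 2-fold higher in males and intersexes than in normal females. It had 6464, 6260 and 6337 normalised counts in dsxF+/+ XY males, 7818, 4996 and 5718 in dsxF-/- XX intersexes, and 3715, 4050 and 3383 in dsxF+/+ XX females. The intersex libraries spread around the male ones, and all 6 of these lay above the dsxF+/+ XX libraries. Its fitted log2 fold change was 0.77 (SE 0.20) in MvF, 0.73 (SE 0.20) in IvF and 0.04 (SE 0.20) in MvI.

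AGAP000990, the member annotated to axonemal dynein assembly, was higher in both males and intersexes than in normal females. It had 2214, 2241 and 1893 normalised counts in dsxF+/+ XY males, 2084, 1443 and 2662 in dsxF-/- XX intersexes, and 356, 710 and 497 in dsxF+/+ XX females. The intersex libraries overlapped the male ones and stood clear of dsxF+/+ XX. In IvF the log2 fold change was 1.99 (SE 0.30, adjusted p = 0.00495, edgeR quasi-likelihood test with Benjamini-Hochberg adjustment). In MvI it was 0.04 (SE 0.29, 95% interval -0.62 to 0.69).

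AGAP000989 rested nearer the female level in the mutant. It had 122, 108 and 102 normalised counts in dsxF+/+ XY males, 63.8, 44.7 and 49.3 in dsxF-/- XX intersexes, and 39.3, 42.6 and 39.1 in dsxF+/+ XX. The intersex libraries lay between the other groups without overlapping either. Neither difference passed the threshold in the edgeR fit used throughout: the log2 fold change was 1.07 in MvI (SE 0.29, adjusted p = 0.0551) and 0.38 in IvF (SE 0.29, adjusted p = 0.451). The MvI difference did pass with DESeq2 (adjusted p = 0.00424), with limma-voom (adjusted p = 0.0373), and in edgeR with at least 10 counts in every library (adjusted p = 0.0292) or with transcripts summed to genes (adjusted p = 0.0293). Its edgeR adjusted p ranged from 0.0612 to 0.192 with 1 library left out.

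Trpm (AGAP006825-RA) had 1238, 2455 and 1420 normalised counts in dsxF+/+ XY males, 1055, 972 and 924 in dsxF-/- XX intersexes, and 470, 1279 and 832 in dsxF+/+ XX females. Males overlapped dsxF+/+ XX through replicate 2 of the females, the highest of its group. The column names end in numbers, which were split for this report into runs holding a library of each group. The runs were 1, 3 and 7, then 9, 11 and 15, then 17, 19 and 23. The sources do not say what these numbers mark. Within each run the male library was the higher: 1238 in dsxF+/+ XY against 832 in dsxF+/+ XX, 1420 in XY against 470 in XX, and 2455 in XY against 1279 in XX. The MvF log2 fold change was 0.99 (SE 0.37) and not called, and with those runs as a block it was 1.01 and called. Calls were also made with the replicate number as a block (1.01), with DESeq2 (0.99) and without dsxF+/+ XX replicate 2 (1.39). The remaining alternatives and left-out libraries gave no call. In the main fit the log2 fold change was 0.19 (SE 0.36, edgeR adjusted p = 0.789) in IvF and 0.79 (SE 0.37, edgeR adjusted p = 0.287) in MvI, and neither passed the threshold.

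**Figure D2:**
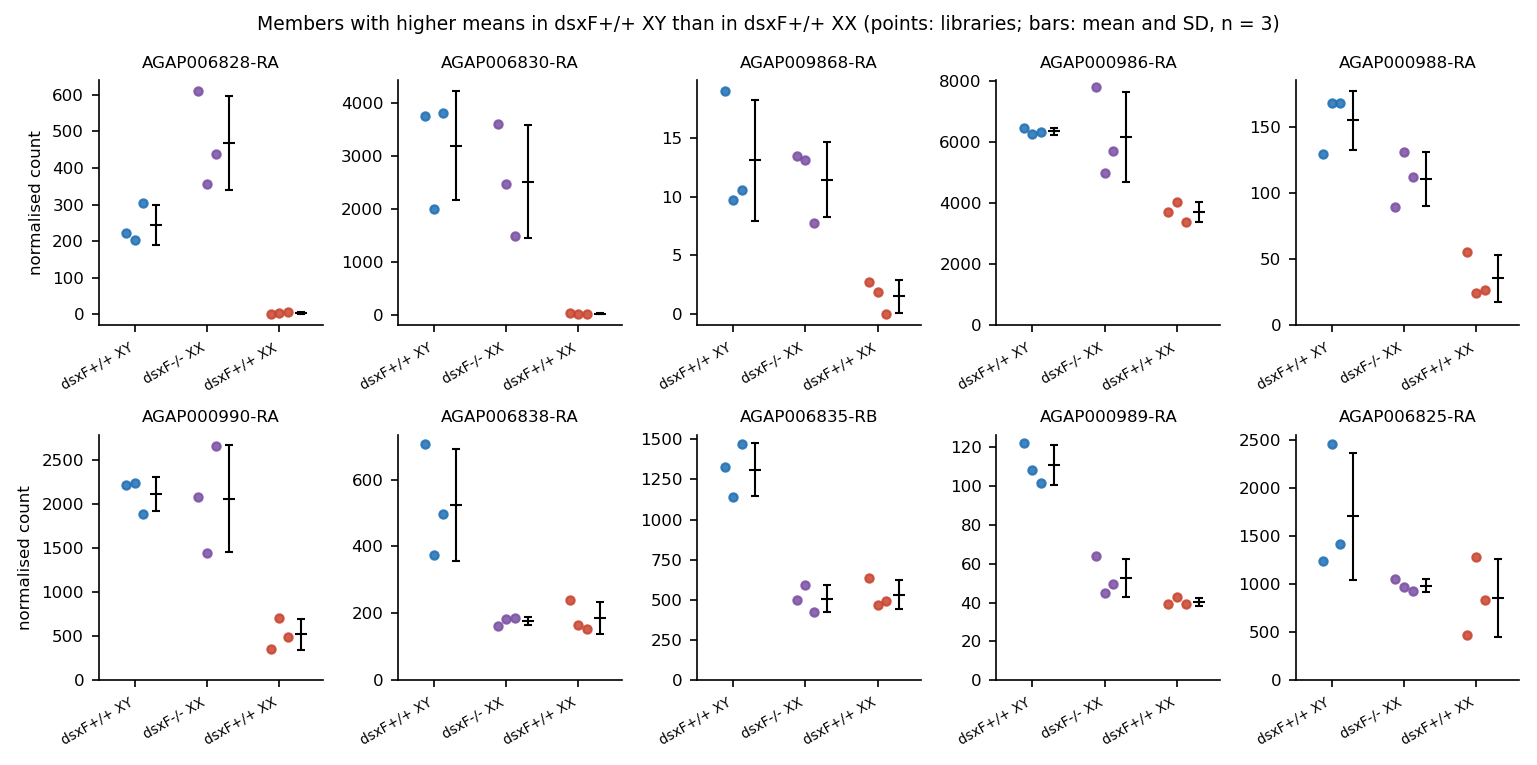
Normalised counts on a linear axis from 0, 1 panel per transcript, for 10 members with a higher mean in dsxF+/+ XY males than in dsxF+/+ XX females; points are libraries and bars the mean and SD of 3. In AGAP006828, AGAP006830, AGAP009868, AGAP000986 and AGAP000990 the intersex points lie at or above the male range or overlap it, and in AGAP006838 and AGAP006835-RB they lie with the dsxF+/+ XX points.

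Both neuronal markers were higher in males and intersexes than in normal females, as were AGAP006828, AGAP006830 and AGAP000990. AGAP006838 and AGAP006835-RB were not, since their intersex libraries lay with the females. The study lists both markers among transcripts higher in males and intersexes than in normal females. That list was made from these libraries, so the direction of the markers is not independent of it. nanchung, a subunit of the transduction channel of chordotonal neurons, ranged from 3514 to 3950 normalised counts in dsxF+/+ XY males, 2497 to 3198 in dsxF-/- XX intersexes and 953 to 1203 in dsxF+/+ XX females. nompB, needed to assemble sensory cilia, ranged from 648 to 724 in dsxF+/+ XY males, 671 to 839 in dsxF-/- XX intersexes and 311 to 423 in dsxF+/+ XX females. Summed over the 2 markers, the level was 4163 to 4598 in dsxF+/+ XY males, 3179 to 4037 in dsxF-/- XX intersexes and 1353 to 1515 in dsxF+/+ XX females. Most of this sum is nanchung, which was lower in every intersex library than in any male library. In nompB the intersex and male ranges overlapped. Neither marker was at 0 in any library, and their part in the members' differences was not tested. Markers of other cell types were not tied to identifiers in the sources used here.

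Each run also held female-high members. In AGAP009868 to AGAP009880, 4 consecutive identifiers, AGAP009877 to AGAP009880, held most of the reads of the run. AGAP009877 had no count in any dsxF+/+ XY library, 35.8, 9.64 and 81.2 normalised counts in dsxF-/- XX intersexes, and 13314, 10225 and 9097 in dsxF+/+ XX females. The 3 groups did not overlap. With a floor of 3 counts over the male group, the level was at least 10558-fold lower in dsxF+/+ XY males than in dsxF+/+ XX females.

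In the mutant, AGAP009877 fell to a trace of its female level but remained detectable. In IvF the log2 fold change was -8.01 (SE 0.77, adjusted p = 0.00185, edgeR quasi-likelihood test with Benjamini-Hochberg adjustment). Against the intersex libraries, dsxF+/+ XY was at least 41.0-fold lower (edgeR adjusted p = 0.0169). Replicate 3 carried much of the intersex mean: without it the bound was 22.1-fold and the IvF log2 fold change was -8.93.

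AGAP009879 lay between the other groups in the mutant. It had 69.5, 34.1 and 68.4 normalised counts in dsxF+/+ XY males, 500, 781 and 475 in dsxF-/- XX intersexes, and 5813, 5351 and 3689 in dsxF+/+ XX females. No library of one group reached the range of another. Its fitted log2 fold change was -3.08 in IvF (SE 0.33, adjusted p = 0.00152) and -3.34 in MvI (SE 0.35, adjusted p = 0.000840; edgeR quasi-likelihood test, Benjamini-Hochberg adjustment), or 8.46-fold and 10.1-fold lower. The MvF log2 fold change was -6.42 (SE 0.39).

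AGAP009878, between these 2 in identifier order, was also highest in dsxF+/+ XX females. It had 3.38, 3.65 and 14 normalised counts in dsxF+/+ XY males, 14.6, 22.8 and 12.6 in dsxF-/- XX intersexes, and 137, 145 and 63.2 in dsxF+/+ XX. Its fall in IvF was -2.78 on the log2 scale (SE 0.61, edgeR adjusted p = 0.0217), and in MvI the value was -1.21 (SE 0.63, edgeR adjusted p = 0.354) with overlapping groups, or -2.28 without dsxF+/+ XY replicate 3. Without any single dsxF-/- XX library or without dsxF+/+ XX replicate 1, the IvF adjusted p lay between 0.0522 and 0.0908.

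AGAP009880, the last identifier of the run, was not called in any comparison. Its male libraries lay below all dsxF+/+ XX libraries, at a log2 fold change of -0.44 in MvF. Its intersex libraries overlapped both other groups. It averaged 151 ± 40.4 normalised counts in dsxF+/+ XY males, 246 ± 55.5 in dsxF-/- XX intersexes and 205 ± 17.3 in dsxF+/+ XX (SD, n = 3 each). Its log2 fold change was 0.26 in IvF (edgeR adjusted p = 0.594) and -0.70 in MvI (edgeR adjusted p = 0.188).

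Between AGAP009868 and AGAP009877, a pair of low transcripts was also female-high, with uneven libraries. AGAP009871 had 2.11, 1.22 and 2.63 normalised counts in dsxF+/+ XY males, 2.24, 1.75 and 0.967 in dsxF-/- XX intersexes, and 17.4, 165 and 14.9 in dsxF+/+ XX. AGAP009871 passed the filter on low counts only through the dsxF+/+ XX libraries, so that its IvF test is not independent of the filter. All dsxF+/+ XX libraries were above the others, but replicate 2 set most of their mean. The IvF log2 fold change was -5.22 (SE 1.10, edgeR adjusted p = 0.0183); it was -3.21 without that library, and without any single dsxF-/- XX library the adjusted p lay between 0.0668 and 0.0790. By limma-voom the adjusted p was 0.0893, and DESeq2 gave no adjusted p.

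AGAP009874, which did not pass the filter, had raw counts of 1, 0 and 4 in dsxF+/+ XY males, 0, 0 and 0 in dsxF-/- XX intersexes, and 4, 80 and 60 in dsxF+/+ XX females. Replicate 1 of the females was near the male libraries and the others were far above. With a floor of 3 counts over the intersex group, its mean was at least 50.6-fold lower in dsxF-/- XX intersexes than in dsxF+/+ XX females.

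In AGAP006820 to AGAP006870 the 2 members called lower in MvF came at the near end, ahead of the RR-1 genes. AGAP006832, whose male libraries also lay below all dsxF+/+ XX libraries, lies between AGAP006830 and AGAP006838 and was not called in MvF. AGAP006821 had 698, 274 and 641 normalised counts in dsxF+/+ XY males, 991, 1246 and 1193 in dsxF-/- XX intersexes, and 3843, 2815 and 4123 in dsxF+/+ XX females. The groups were ordered without overlap, with the intersex libraries in between. It was lower in IvF, with a log2 fold change of -1.65 (SE 0.33, edgeR adjusted p = 0.0157), whereas the MvI value of -1.09 (SE 0.33) missed the threshold in edgeR (adjusted p = 0.0899) and passed it in DESeq2 (adjusted p = 0.0159). Without dsxF-/- XX replicate 1 or 3, or dsxF+/+ XX replicate 3, the IvF adjusted p lay between 0.0585 and 0.0752.

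AGAP006824, next to Trpm, had 24.2, 15.8 and 18.4 normalised counts in dsxF+/+ XY males, 62.7, 79.8 and 58 in dsxF-/- XX intersexes, and 351, 185 and 240 in dsxF+/+ XX females. Again the 3 groups were separate, and both tests were passed. The log2 fold change was -1.95 in IvF (SE 0.32, adjusted p = 0.0072) and -1.77 in MvI (SE 0.33, adjusted p = 0.0129; edgeR quasi-likelihood test, Benjamini-Hochberg adjustment). By limma-voom the MvI adjusted p was 0.0651. AGAP006820, at the very start of the run, averaged 666 ± 31.5 normalised counts in dsxF+/+ XY males, 697 ± 87.5 in dsxF-/- XX intersexes and 775 ± 167 in dsxF+/+ XX females (SD, n = 3 each), with overlapping groups.

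AGAP006832, which follows the RR-1 gene AGAP006830 by 2 identifiers, had 9.48, 0 and 9.65 normalised counts in dsxF+/+ XY males, 2.24, 0.876 and 2.90 in dsxF-/- XX intersexes, and 25.6, 32.2 and 16.1 in dsxF+/+ XX. Intersex libraries lay below all dsxF+/+ XX libraries and overlapped the males. The filter on low counts was passed only through dsxF+/+ XX, so that the IvF test is not independent of it. The IvF log2 fold change was -3.56 (SE 0.98, edgeR adjusted p = 0.0484). This call was lost when any library other than dsxF+/+ XY replicate 2 was left out, with adjusted p between 0.0698 and 0.151.

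**Figure D3:**
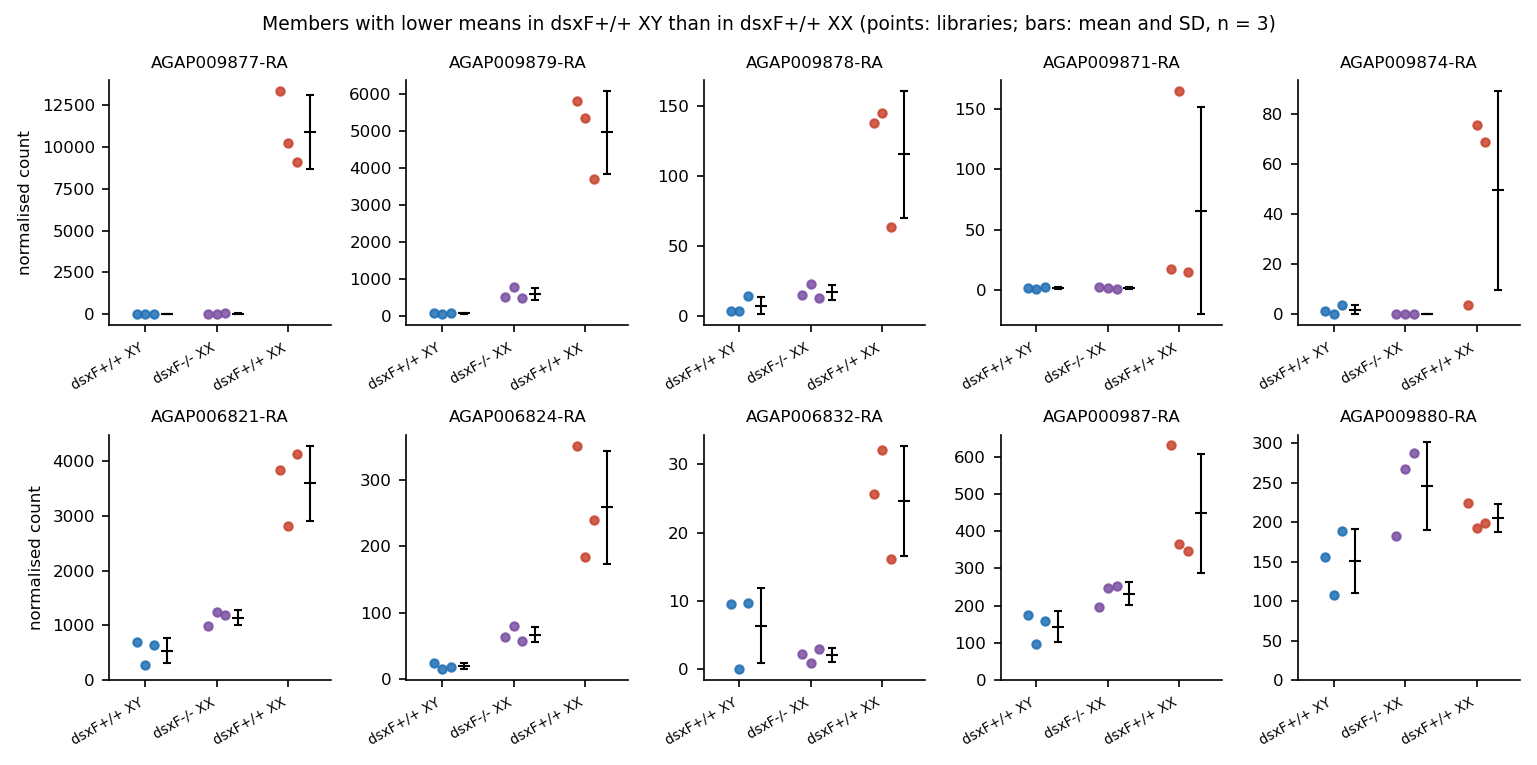
Normalised counts on a linear axis, 1 panel per transcript, for 10 members with a lower mean in dsxF+/+ XY males than in dsxF+/+ XX females; points are libraries and bars the mean and SD of 3. In AGAP009879, AGAP006821 and AGAP006824 the intersex points lie between the other groups, in AGAP009877 they lie near 0 with a mean of 42.2, and in AGAP009871 a single dsxF+/+ XX library at 165 sets the spread.

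AGAP000987 and AGAP000988 are adjacent and shared reads in some libraries. AGAP000988, a cuticular gene, had 130, 168 and 168 normalised counts in dsxF+/+ XY males, 89.6, 131 and 112 in dsxF-/- XX intersexes, and 55.8, 24.6 and 26.4 in dsxF+/+ XX. AGAP000987 had 176, 96.1 and 160 in dsxF+/+ XY males, 196, 249 and 252 in dsxF-/- XX intersexes, and 632, 365 and 347 in dsxF+/+ XX females. The neighbours thus ran in opposite directions, with log2 fold changes in MvF of 2.12 (SE 0.37) for AGAP000988 and -1.64 (SE 0.31) for AGAP000987.

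In IvF the log2 fold change was 1.63 (SE 0.37) for AGAP000988 and -0.95 for AGAP000987 (SE 0.31, edgeR adjusted p = 0.0809, DESeq2 adjusted p = 0.0279). The estimated counts of the pair were not whole in 2 of 9 libraries, dsxF-/- XX replicate 2 and dsxF+/+ XX replicate 1, while their sum was whole, to within 0.005, in all 9. In those 2 libraries some reads were therefore divided between the pair by the estimate. AGAP000988 held 42.4% to 63.6% of the pair's counts in dsxF+/+ XY males, 30.8% to 34.5% in dsxF-/- XX intersexes and 6.31% to 8.12% in dsxF+/+ XX, and these ranges did not overlap. The 7 libraries with whole counts showed the same separation.

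As a single feature, the pair averaged 299 ± 32.4 normalised counts in dsxF+/+ XY males, 343 ± 50.4 in dsxF-/- XX intersexes and 484 ± 177 in dsxF+/+ XX females (SD, n = 3 each). Its log2 fold change was -0.69 in MvF and -0.49 in IvF (edgeR adjusted p = 0.270), so that the groups differed less in the total than in how it was divided.

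**Figure D4:**
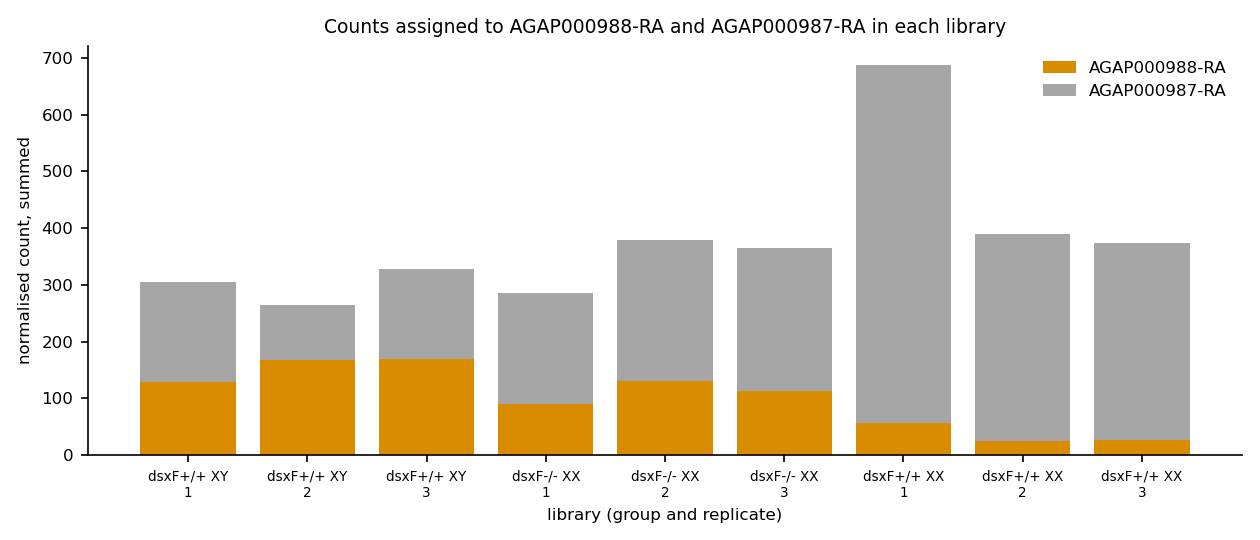
Normalised counts of AGAP000988-RA and AGAP000987-RA stacked from 0 for each of the 9 libraries. The AGAP000988-RA portion is 42.4% to 63.6% of the bar in dsxF+/+ XY males, 30.8% to 34.5% in dsxF-/- XX intersexes and 6.31% to 8.12% in dsxF+/+ XX.

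The comparisons with the mutant can be read over all members. In IvF, 1 of the 17 tested members that entered by identifier alone was higher in dsxF-/- XX intersexes, beside 4.18% of all tested transcripts, and 7 were lower, beside 6.87%. The one higher was AGAP000990, and the 7 lower were AGAP006821, AGAP006824, AGAP006832, AGAP009871, AGAP009877, AGAP009878 and AGAP009879. AGAP000990 stands in the study's lists made from these libraries, so its call is not independent of them. AGAP006832 and AGAP009871 passed the filter on low counts only through their dsxF+/+ XX libraries. A call as lower was thereby favoured for both, and they add nothing to the comparison with 6.87%. With the 6 cuticular genes, which were chosen on these libraries and are read no further, the counts over all 23 were 5 higher and 7 lower. AGAP009868, which the study lists as higher in both males and intersexes, was not called in IvF in the edgeR fit used throughout. It was called with DESeq2 and in edgeR with transcripts summed to genes. AGAP000986 was called in the edgeR fit used throughout, but lost the call in 7 of 9 fits with 1 library left out. The count of 7 lower members fell to 3, 4 and 3 when dsxF-/- XX replicate 1, 2 or 3 was left out. The count of 5 higher members became 3 without dsxF-/- XX replicate 1 or 3, without dsxF+/+ XX replicate 3, and with the replicate number as a block.

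In MvI, 1 of the 17 was higher in dsxF+/+ XY males, beside 1.3% of all tested transcripts, and 3 were lower, beside 6.09%. The one higher was AGAP006835-RB, and the 3 lower were AGAP006824, AGAP009877 and AGAP009879. AGAP006835-RB also stands in the study's lists, so its call is not independent of these libraries. With AGAP006838, a cuticular gene chosen on these libraries, 2 of all 23 were higher. These 2 and 3 calls were made in all 9 fits with 1 library left out. The medians over the 23 members were -0.07 in IvF and -0.07 in MvI, beside -0.00 and 0.02 over all tested transcripts.

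**Figure D5:**
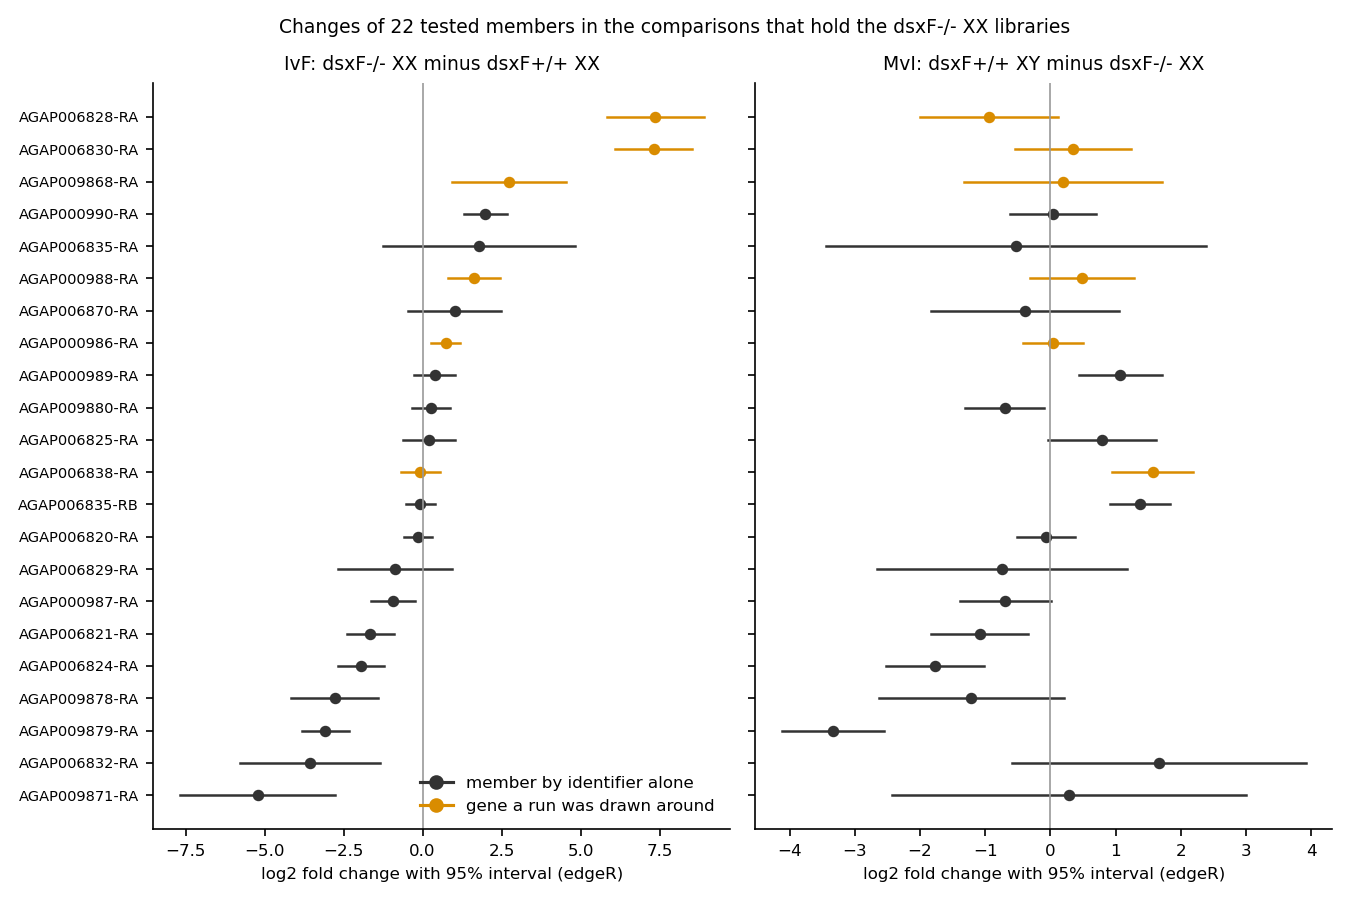
Log2 fold changes with 95% intervals for 22 of the 23 tested members, dsxF-/- XX over dsxF+/+ XX on the left and dsxF+/+ XY over dsxF-/- XX on the right; the genes around which the runs were drawn are in orange. AGAP009877-RA is left out because it had no count in dsxF+/+ XY. AGAP006828 and AGAP006830 lie furthest right in the left panel, at 7.36 and 7.31, and AGAP006835-RB and AGAP006838 lie at -0.07 there and at 1.37 and 1.57 in the right panel.

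The place of the intersex group between the others was expressed on a scale of log2(group mean CPM + 0.5). On it 0 is dsxF+/+ XX and 1 is dsxF+/+ XY. It is a description with no test. All cuticular genes but AGAP006838 stood towards or past the male end: AGAP006828 at 1.2, AGAP006830 at 0.95, AGAP000986 at 0.95, AGAP009868 at 0.90 and AGAP000988 at 0.76. AGAP006838 stood at -0.05. The study lists the others as fully recovered in the mutant, from these same libraries, so their places are not independent of that choice. AGAP000990 stood at 0.98, AGAP000989 at 0.25 and AGAP006835-RB at -0.06. The 7 members lower in MvF ranged from 0.49 to 1.02, with AGAP009879 at 0.49, AGAP006824 at 0.56, AGAP000987 at 0.58, AGAP006821 at 0.60, AGAP009877 at 0.75, AGAP009878 at 0.77 and AGAP009871 at 1.02. The position of AGAP009877 depends on the added 0.5 CPM, since males had no count. That addition also weighs on AGAP006828, AGAP009868, AGAP009871, AGAP009878 and AGAP006832, each with a group mean under 0.5 CPM. AGAP006832, which was not called in MvF or MvI, stood at 1.44, with 0.39 CPM in dsxF+/+ XY males and 0.12 in dsxF-/- XX intersexes. The 2 RR-1 genes of the first run that stood near or past the male end, AGAP006828 and AGAP006830, and the one near the female end, AGAP006838, lie within 10 identifiers of each other.

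Other cuticular transcripts that the study names lie outside the runs and were picked on these libraries, so their values are a description. The RR-2 family transcript AGAP006283-RB had 85.3, 42.6 and 112 normalised counts in dsxF+/+ XY males, 169, 271 and 231 in dsxF-/- XX intersexes, and 23.8, 1.89 and 16.1 in dsxF+/+ XX. Like AGAP006828, it was higher in every intersex library than in any male library. AGAP012487-RA, another RR-2 transcript, had 12.6, 18.3 and 26.3 in dsxF+/+ XY males, 24.6, 31.6 and 27.1 in dsxF-/- XX intersexes, and no count in dsxF+/+ XX females. AGAP013465-RA and AGAP003385-RA did not pass the filter, and averaged 19.6 and 19.6 normalised counts in dsxF+/+ XY males, 1.52 and 1.23 in dsxF-/- XX intersexes, and 1.39 and 1.58 in dsxF+/+ XX; both had their low level in both XX groups, as AGAP006838 did.

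The members together took 0.0908% to 0.111% of all counts in dsxF+/+ XY males, 0.0966% to 0.118% in dsxF-/- XX intersexes and 0.132% to 0.197% in dsxF+/+ XX. AGAP009877 alone was the largest part in each dsxF+/+ XX library, with 14561, 10801 and 7914 estimated counts, and had none in dsxF+/+ XY males. The share therefore does not describe the members as a set.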

How the data were processed

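RNA was sequenced (SMART-Seq v4 libraries) from pedicels of 9 libraries, 3 per group. The deposited values are estimated counts per transcript, made by the authors with kallisto against the AgamP4.12 PEST transcripts (tool version not given in the sources used here). Whether p-values cover more than the spread between these 9 pooled libraries depends on how the pools were made. The study calls them biological repeats.

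Estimated counts were rounded. The fit used edgeR 4.0.16 (R 4.3.3) with TMM, filterByExpr by group, 1 fit of 3 groups, quasi-likelihood tests, and Benjamini-Hochberg adjustment over 12379 transcripts, called at 0.05. The biological coefficient of variation was 36%. The fits were checked on simulated data. A floor of 3 counts covers counting error only. Exact tests of 3 against 3 libraries cannot go under p = 0.1 and were not used. Alternatives were DESeq2 1.42.0, limma-voom (limma 3.58.1), other normalization, filters, features and blocks, a threshold of 0.01 on the adjusted p, and leaving out each library.

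Members and lists were chosen with earlier results of these data known. Transcripts named are the 6 cuticular genes, tested members of at least 5 CPM with separate groups and a log2 change of at least 1 in MvF (up to 12 per direction), members called in IvF or MvI with separate groups, and those with a name or shared reads. AGAP006820, AGAP006826, AGAP006829, AGAP009874 and AGAP009880 were named after their values were seen. Replicate numbers did not pair the libraries (correlations of deviations from -0.279 to 0.452). Runs of the numbers that end the column names had correlations over 0.1 for all 3 pairs in MvF (0.213, 0.233 and 0.452). In the other comparisons they did not. As a block these runs brought the members higher in MvF to 10 with Trpm, and so did the replicate number. The reference table matched 0 of the identifiers, and no sequence was printed.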

Additional observations from a re-analysis of the deposited data

How the results depend on the processing

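With at least 10 counts in every library, 4 members were lower in MvF, and 3 were higher and 3 lower in IvF; that filter tested 14 members. At an adjusted p under 0.01, 3 were higher and 3 lower in IvF and 1 was lower in MvI. The replicate number as a block gave 3 members higher in IvF, for which the cause was not tested; the other counts in that fit were 10 higher and 7 lower in MvF, 6 lower in IvF, and 2 higher and 3 lower in MvI. With each library left out in turn, the counts ran from 7 to 10 higher and 7 to 8 lower in MvF, 3 to 5 higher and 3 to 8 lower in IvF, and stayed at 2 higher and 3 lower in MvI. All remaining alternatives left the counts within 1.5 times. Adding AGAP000987 and AGAP000988 into 1 feature gave -0.69 in MvF, -0.49 in IvF and -0.20 in MvI where AGAP000988 alone was positive, because the sum also holds AGAP000987, which runs the other way. Log2 fold changes that were near 0 and not called crossed 0 with a library left out: AGAP000986 in MvI (-0.12 to 0.24), AGAP000990 in MvI (-0.19 to 0.26), AGAP009868 in MvI (-0.17 to 0.36), Trpm AGAP006825 in IvF (-0.10 to 0.60), AGAP006835-RB in IvF (-0.19 to 0.078, and 0.0014 summed to genes) and AGAP006838 in IvF (-0.18 to 0.16). No filter added AGAP009874 to the members lower in MvF and IvF. Transcripts with a few counts per library are limited by depth.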
